A study of Sus scrofa with 12 samples.

Results

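The antioxidant enzyme genes studied here were named by 10 symbols, SOD1, SOD2, SOD3, CAT, GPX1, GPX3, GPX4, PRDX3, HMOX1 and NQO1, and a symbol was kept when its Ensembl gene had counts in the deposited table. Of these, 8 had counts, out of 20341 genes with at least 1 count and 25880 genes listed. GPX1, the cytosolic glutathione peroxidase, had no row under its symbol and was not analysed here. HMOX1, the inducible haem oxygenase (ENSSSCG00000039745), was listed at 0 counts in all 12 pigs. RefSeq places it on a scaffold without a chromosome, and whether its reads could be counted on that row was not tested, so nothing is said of its expression. The RNA came from the Semimembranosus muscle of 12 purebred Italian Large White pigs, 6 with high intramuscular fat (high IMF group, pigs 1 to 6) and 6 with low intramuscular fat (low IMF group, pigs 7 to 12), all reared in 1 environment on 1 diet, with no treatment, and slaughtered at 229 to 249 days of age. By the labels each group held 3 gilts and 3 barrows. The paper states that the pigs were slaughtered on several different days, and which pigs shared a day was not analysed here. The pigs were chosen as the extremes of a larger population for fat content, and each library is the RNA of a piece of whole muscle from a separate animal, in which fewer cells of a type and less RNA per cell cannot be told apart.

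Muscle fibres form superoxide and hydrogen peroxide, mostly in mitochondria and at membrane oxidases. Superoxide dismutases turn superoxide into hydrogen peroxide in the cytosol (SOD1), the mitochondrial matrix (SOD2) and the extracellular space (SOD3), and catalase (CAT), glutathione peroxidases and peroxiredoxins then remove the peroxide. NQO1, a quinone reductase, is a classical target of the transcription factor NRF2 (gene NFE2L2), which KEAP1 holds in check and which binds the antioxidant response element in DNA.

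The counts summed to between 131048805 and 178013997 per pig, with medians of 144352007 in the high and 146535541 in the low IMF pigs. In each pig this sum exceeded the input reads that the paper lists, so a count need not be a separate fragment. Muscle genes were abundant in every pig, the 3 named markers of skeletal muscle (ACTA1, CKM and DES) summing to at least 24853 CPM (counts scaled to a common library total). Counts on 2 Y chromosome genes were at least 3734 or at most 6 in a pig, and went against the labelled sex of 2 high and 4 low IMF pigs, so that a pig may not be the animal its label names. Each group held 3 pigs with Y chromosome counts. The groups were used as labelled, and each value below carries this limit. The 6 adipocyte markers, all tested, had 0 genes at a raw p of 0.05 or less by edgeR's quasi-likelihood test, and summed to between 57.7 and 134.9 CPM in the high and between 33.6 and 147.8 CPM in the low IMF pigs. Leptin was the marker at 0 in a pig. Red blood cell markers reached 632.4 CPM in pig 6 and at most 122.0 CPM in the low IMF group. The 6 early response and heat shock genes summed to between 997.5 and 2350 CPM in the high and between 755.9 and 1684 CPM in the low IMF pigs, and with edgeR 3 of these 6 genes stood higher in the high IMF pigs with a raw p of 0.05 or less. Their mean log2 CPM correlated with each of the 8 enzyme genes at r between -0.17 and 0.29 over the 12 pigs, and their part in the results was not tested.

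The 250 bases before the RefSeq gene start (Sscrofa11.1) are given for SOD2 and PRDX3, the pair whose correlation across the pigs passed the test below, and for NQO1, the classical NRF2 target, whose correlation with each of them did not. The windows read 5′ to 3′ on the gene's strand, and the capitals mark a match to the antioxidant response element TGACNNNGC, searched on both strands. The windows are chr1:7679102-7679351 on the plus strand for SOD2, chr14:129090791-129091040 on the minus strand for PRDX3 and chr6:17292712-17292961 on the plus strand for NQO1.
SOD2: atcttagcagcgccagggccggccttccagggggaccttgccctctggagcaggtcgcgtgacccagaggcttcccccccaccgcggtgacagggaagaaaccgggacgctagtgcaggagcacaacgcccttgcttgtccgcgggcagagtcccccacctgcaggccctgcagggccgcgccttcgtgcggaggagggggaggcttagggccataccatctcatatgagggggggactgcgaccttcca
PRDX3: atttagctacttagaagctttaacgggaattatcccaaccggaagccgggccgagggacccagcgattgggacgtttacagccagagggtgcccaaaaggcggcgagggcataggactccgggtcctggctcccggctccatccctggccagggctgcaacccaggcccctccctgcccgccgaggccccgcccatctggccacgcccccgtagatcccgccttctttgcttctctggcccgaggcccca
NQO1: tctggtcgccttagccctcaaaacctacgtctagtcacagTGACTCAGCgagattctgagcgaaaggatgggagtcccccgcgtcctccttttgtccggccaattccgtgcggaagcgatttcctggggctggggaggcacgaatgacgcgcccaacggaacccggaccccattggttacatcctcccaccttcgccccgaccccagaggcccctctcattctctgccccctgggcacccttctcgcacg
The NQO1 window held TGACTCAGC, with its first base at position -210 relative to the gene start. Among the other 9 genes, GPX4 also held a match, GCGCAGTCA, which is the element on the opposite strand, with its first base at position -190. The element was found in 9.85% of the windows of 20659 RefSeq genes. A search for TNAAGGTCA, a binding sequence of the oestrogen-related receptors that act on mitochondrial genes, matched in the SOD3 window (TGAAGGTCA, first base at position -113) and in 0.794% of all windows. The palindromic binding sequence of NRF1, a factor of mitochondrial genes, was in none of the 10 windows and in 4.58% of all windows. The motifs were chosen after the values below were seen, their matches may overlap, and a RefSeq start need not be the start used in muscle. The windows of the 10 genes were 52% to 71.2% G and C, beside a median of 57.2% over all genes.

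SOD2 was the most abundant of the 8 genes per length and SOD3 the least. Levels are given as RPKM, the CPM on TMM library sizes divided by the kilobases of RefSeq exon, as the mean ± SD of 12 pigs. SOD2 stood at 204.4 ± 40.0 RPKM, with a range of 138.4 to 266.4 that lay above every value of the other 7 genes. PRDX3, the peroxiredoxin of mitochondria, had 79.8 ± 12.6 RPKM and SOD1 had 72.6 ± 6.71 RPKM, and their ranges overlapped. CAT, the peroxisomal catalase, had 56.4 ± 16.7 RPKM. GPX4, which reduces lipid peroxides in membranes, had 46.1 ± 5.76 RPKM and GPX3, the secreted plasma form, had 30.4 ± 9.82 RPKM. In this order each neighbour from PRDX3 to GPX3 overlapped the next. NQO1 followed with 9.24 ± 2.82 RPKM, its highest pig at 15.4 RPKM being below the lowest of GPX3 at 18.4 RPKM. SOD3 had 0.457 ± 0.195 RPKM, with a count of 37 in its lowest pig, so that counting error is largest for it. With coding length in place of exon length the order changed at 1 place, GPX3 (69.9 ± 22.6) then standing above GPX4 (69.1 ± 8.63). By group, SOD2 had 209.6 ± 43.1 RPKM (SD, n = 6) in the high and 199.2 ± 40.0 RPKM (SD, n = 6) in the low IMF group.

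**Figure D1:**
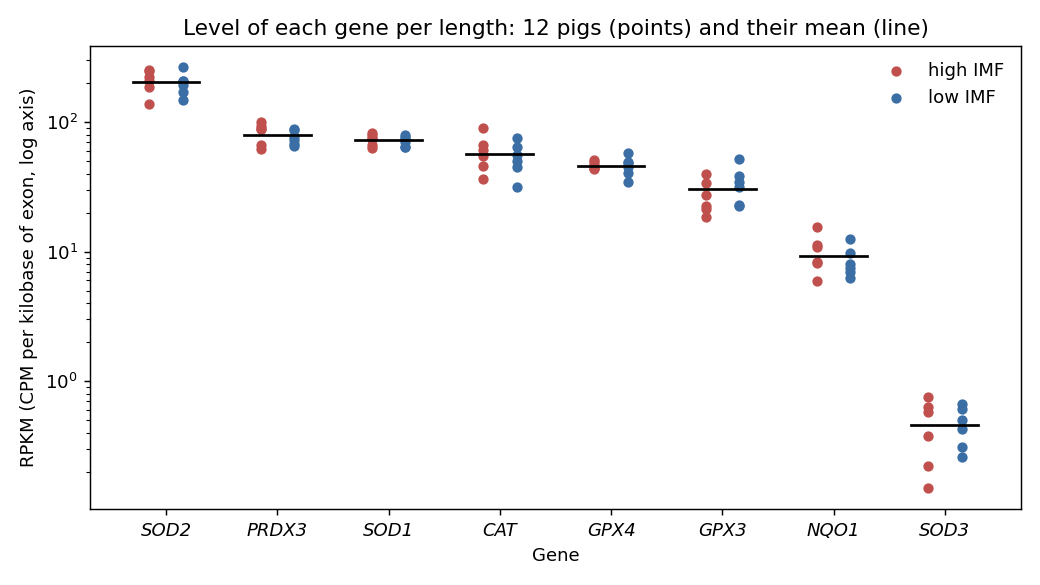
RPKM (CPM per kilobase of RefSeq exon, log axis) of 8 antioxidant enzyme genes, with 1 point for each of 12 pigs (6 high IMF, 6 low IMF) and a line at the mean. SOD2 lies above the other genes at a mean of 204.4 and SOD3 lowest at 0.457, and the groups overlap at each gene.

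The genes differed in how far the pigs spread. SOD1 was the steadiest, its highest pig being 1.31 times its lowest, and the SD of its log2 CPM (0.14) exceeded that of 4.38% of the 14262 genes tested. GPX4 followed, with an SD of 0.18, and PRDX3 with 0.23. SOD2 had an SD of 0.29, near the median of all genes tested at 0.33. NQO1 (0.42), CAT (0.43) and GPX3 (0.45) varied more, with 2.61, 2.88 and 2.83 times from the lowest to the highest pig in turn. SOD3 varied most, by 5.02 times and with an SD of 0.71, above that of 84.5% of all genes tested. It also had the fewest counts.

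None of the 8 genes differed between the groups in the test used. With edgeR's quasi-likelihood test and an adjusted p of 0.05 or less together with a log2FC (low relative to high IMF) beyond 0.58 in either direction, 0 of 8 genes were called, beside 0 of 14262 genes (0%). At a raw p of 0.05 or less by the same test there were 0 of 8 genes, beside 1486 of 14262 genes (10.4%). DESeq2's Wald test on the same genes also placed 0 of 8 at that raw p, beside 1715 of 14262 genes. By the thresholds for a call it called 0 of 8, beside 60 of 14262 genes. The adjusted p of the 8 genes ran from 0.677 to 0.981 with edgeR, and their median log2FC was -0.06, beside -0.01 over all genes tested. In 0 of 8 genes did the groups not overlap, beside 0.659% of all genes. The values below are TMM-normalized counts, given as the lowest, the median and the highest of the 6 pigs of a group.

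Of the dismutases, SOD1 (ENSSSCG00000021355, chr13:195326573-195335273) had 5909, 7024 and 7753 in the high and 5989, 6815 and 7444 in the low IMF group. Pigs 2, 9 and 8 were the lowest and pig 6 the highest, and the groups overlapped over nearly their whole range. Its log2FC was -0.04 (SE 0.09, 95% confidence interval -0.24 to 0.16, edgeR adjusted p = 0.916). SOD1 is a gene that red blood cells carry in quantity, and its highest pig was also the one with the most red blood cell marker counts, with r = 0.56 between SOD1 and these markers over the 12 pigs (adjusted p = 0.517, permutation), rho = 0.34 and r = 0.21 without the 2 farthest pigs.

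SOD2 (ENSSSCG00000040317, chr1:7679352-7689564) had 34267, 53499 and 62930 in the high and 36832, 49557 and 65972 in the low IMF group. The lowest and the second lowest pig (2 and 9) came from different groups, as did the highest (7) and the second highest (5). The log2FC was -0.07 (SE 0.16, 95% confidence interval -0.43 to 0.28, edgeR adjusted p = 0.910). SOD3 (ENSSSCG00000028814, chr8:18796633-18802156) had 37.4, 119.4 and 187.7 in the high and 65.7, 116.7 and 168.3 in the low IMF group. The low IMF pigs lay within the range of the high IMF pigs. Its log2FC of 0.04 (SE 0.38, 95% confidence interval -0.78 to 0.86, edgeR adjusted p = 0.981) had the widest interval of the 8 genes, and the sign turned when pig 3, 4, 5, 8 or 12 was left out, down to -0.14 without pig 4.

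**Figure D2:**
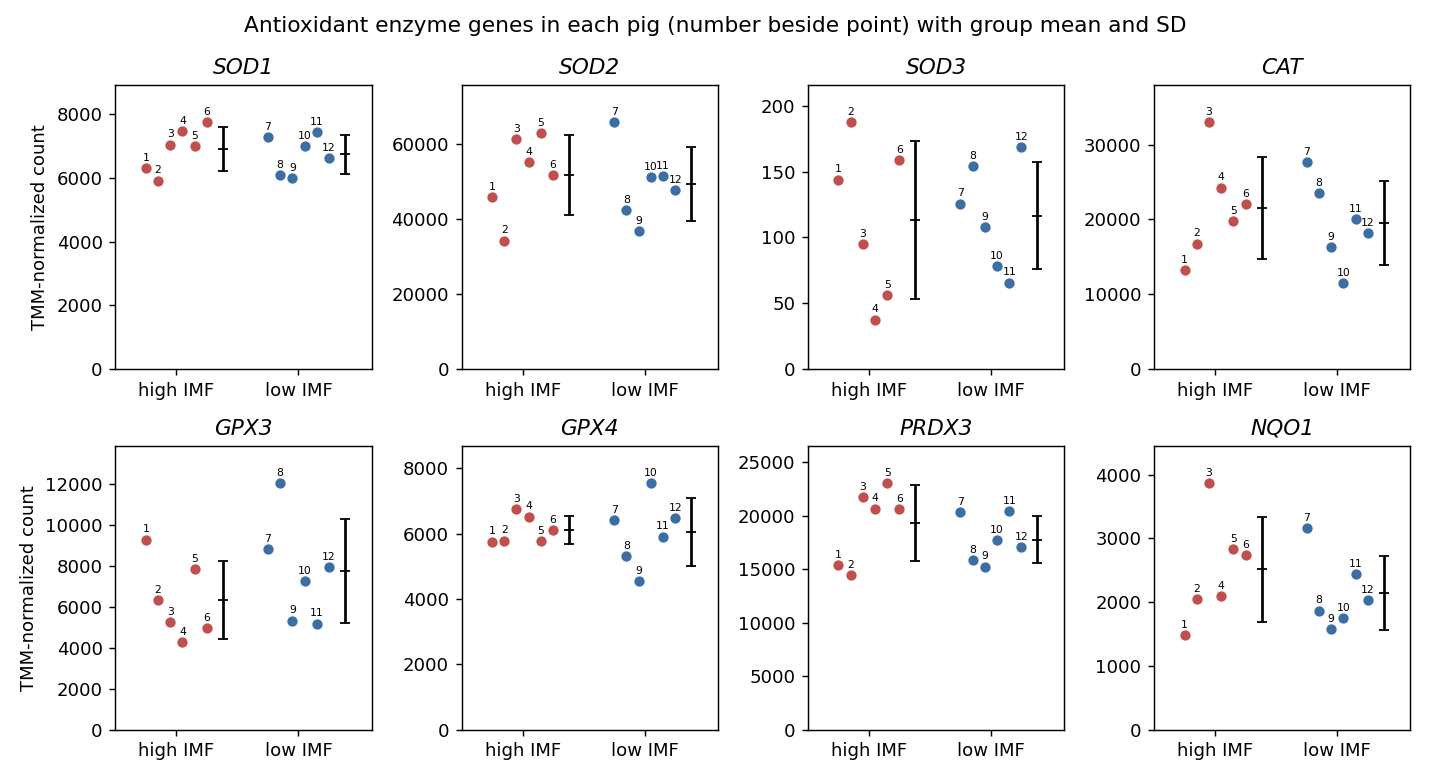
TMM-normalized counts of 8 antioxidant enzyme genes in 6 high IMF and 6 low IMF pigs (points, with pig numbers), with the group mean and SD as a bar beside them and axes from 0. The groups overlap in each panel, and pigs 2 and 9 are the lowest for SOD2, while SOD3 spreads from 37.4 to 187.7.

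Among the enzymes that remove hydrogen peroxide, CAT (ENSSSCG00000013302, chr2:26493664-26533881) had 13233, 20905 and 33037 in the high and 11464, 19106 and 27633 in the low IMF group. Pig 3 stood highest and pig 10 lowest. The log2FC was -0.14 (SE 0.23, 95% confidence interval -0.64 to 0.35, edgeR adjusted p = 0.868), and it was 0.02 without pig 3. PRDX3 (ENSSSCG00000010682, chr14:129079050-129090790) had 14480, 20637 and 23090 in the high and 15250, 17397 and 20408 in the low IMF group. In the high IMF group pigs 1 and 2 were low and the other 4 lay above every low IMF pig. The log2FC was -0.12 (SE 0.13, 95% confidence interval -0.40 to 0.16, edgeR adjusted p = 0.780).

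GPX3 (ENSSSCG00000036438, chr16:71980467-71989011) had 4268, 5796 and 9291 in the high and 5184, 7601 and 12071 in the low IMF group, and pig 8 was the highest. Its log2FC was 0.29 (SE 0.23, 95% confidence interval -0.20 to 0.79, edgeR adjusted p = 0.677), and the exact two-sided permutation test over all arrangements of the pigs gave p = 0.292. The estimate was 0.13 without pig 8 and 0.43 without pig 1. GPX4 (ENSSSCG00000024052, chr2:77321568-77323931) had 5760, 5949 and 6747 in the high and 4552, 6168 and 7561 in the low IMF group. The low IMF pigs held both the lowest (pig 9) and the highest (pig 10) value. The log2FC was -0.02 (SE 0.11, 95% confidence interval -0.26 to 0.23, edgeR adjusted p = 0.974).

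NQO1 (ENSSSCG00000002754, chr6:17292962-17302593) had 1486, 2415 and 3875 in the high and 1581, 1950 and 3161 in the low IMF group. Pigs 3 and 7 were high and pigs 1 and 9 low, 1 of each group. Its log2FC was -0.23 (SE 0.22, 95% confidence interval -0.71 to 0.25, edgeR adjusted p = 0.743), and it was -0.07 without pig 3 and -0.37 without pig 7. A change of 0.58 or more in size lay outside the intervals of SOD1, SOD2, GPX4 and PRDX3, and within those of SOD3, CAT, GPX3 and NQO1. The exact permutation p of the 8 genes ran from 0.292 to 0.762, where the smallest p the design allows is 0.00216.

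**Figure D3:**
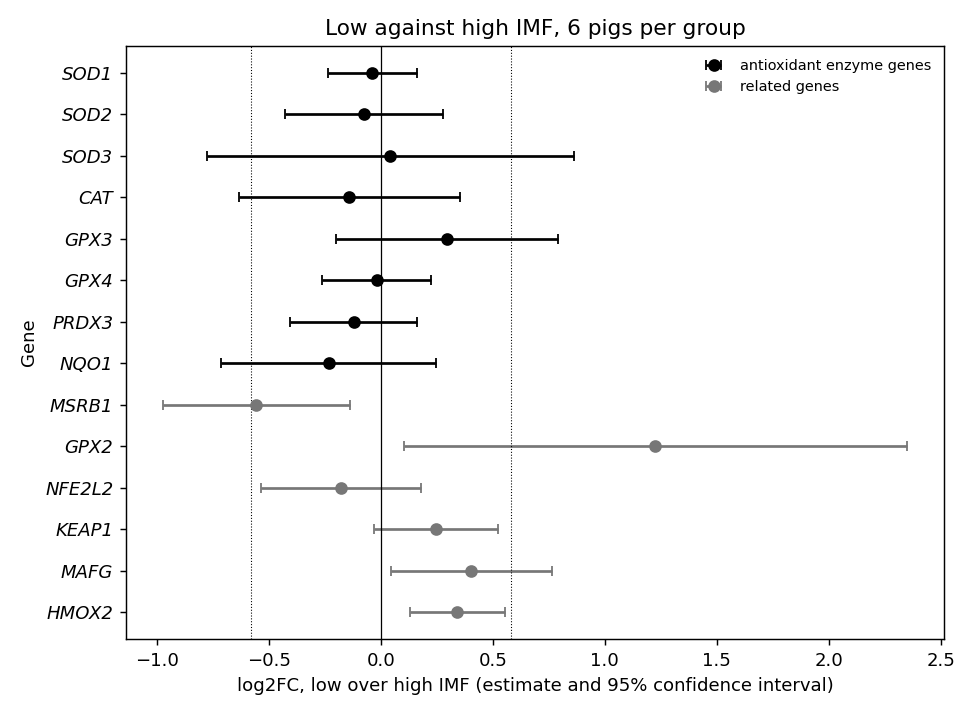
Estimated log2FC (low over high IMF, 6 pigs per group) with its 95% confidence interval from edgeR for 8 antioxidant enzyme genes (black) and 6 related genes (grey), with dotted lines at 0.58 in either direction. The intervals of the 8 enzyme genes include 0, with estimates from -0.23 (NQO1) to 0.29 (GPX3).

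The genes around these enzymes were taken from a list of 51 symbols, of which 41 were tested. At a raw p of 0.05 or less by edgeR's quasi-likelihood test, 3 of the 41 were higher in the low IMF group (5.38% of all genes tested) and 1 of the 41 was higher in the high IMF group (5.04% of all genes tested), and 0 passed after adjustment, the smallest adjusted p being 0.369. In both directions together this was 4 of the 41 (9.76%), near the 10.4% of all genes tested. By role, the counts at that p were 1 of 12 in the other peroxiredoxins and thioredoxin system, 1 of 11 in the glutathione system, 1 of 5 in the NRF2 axis, 1 of 5 in copper, haem and iron handling, 0 of 5 in selenoproteins and sestrins and 0 of 3 in oxidant sources.

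HMOX2, the constitutive haem oxygenase, had 5084, 6119 and 6339 in the high and 6268, 7594 and 8618 in the low IMF group, so that only pigs 1 and 10 overlapped. Its log2FC was 0.34 (SE 0.10, edgeR raw p = 0.00375 and adjusted p = 0.369, exact two-sided permutation p = 0.00433). MSRB1, a selenoprotein that repairs oxidised methionine, had 6034, 9122 and 15160 in the high and 4468, 6973 and 7708 in the low IMF pigs, and 5 of the 6 high IMF pigs lay above the low IMF pigs. Its log2FC was -0.56 (SE 0.19, edgeR raw p = 0.0126 and adjusted p = 0.427, exact two-sided permutation p = 0.0281).

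MAFG, a small Maf protein that binds DNA together with NRF2, had 394.7, 546.8 and 644.3 in the high and 597.8, 625.2 and 936.8 in the low IMF pigs. Its log2FC was 0.40 (SE 0.17, edgeR raw p = 0.0297 and adjusted p = 0.441, exact two-sided permutation p = 0.0693). Pigs 7 and 8 were high and the other 4 low IMF pigs overlapped the high IMF group. GPX2, a glutathione peroxidase best known from the gut, had few counts, with 24.7, 55.9 and 194.1 in the high and 84.2, 160.4 and 347.2 in the low IMF pigs. The log2FC was 1.22 (SE 0.52, edgeR raw p = 0.0348 and adjusted p = 0.449, exact two-sided permutation p = 0.0390). Pigs 1 and 4 of the high IMF group overlapped the low IMF group.

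NFE2L2 had 6338, 9702 and 12139 in the high and 5912, 8249 and 10337 in the low IMF group (log2FC -0.18, SE 0.17, edgeR adjusted p = 0.740), and its log2FC ran from -0.27 without pig 5 to -0.08 without pig 12. KEAP1 had 9362, 10478 and 12200 in the high and 10108, 11345 and 16068 in the low IMF group (log2FC 0.25, SE 0.13, edgeR adjusted p = 0.517). The groups overlapped for both. Over the 12 pigs NQO1 correlated with NFE2L2 at r = 0.43 (rho = 0.49, permutation adjusted p = 0.572), and the r of the 8 enzyme genes with NFE2L2 ran from -0.46 (GPX3) to 0.54 (CAT). With KEAP1 they ran from -0.39 (PRDX3) to 0.61 (GPX3). None of these 16 correlations passed after adjustment, the smallest adjusted p being 0.359.

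The 8 genes were then compared with each other from pig to pig. Correlations used log2 CPM over 12 pigs, with a permutation p from 100000 resamples, and pairs of genes share the same libraries and normalization. The p was adjusted over the 114088 pairs of each enzyme gene with each other gene tested, together with each enzyme gene paired with itself. Those self-pairs correlate fully and lower the adjusted p somewhat, and values without them were not computed. Of the 28 pairs among the 8 genes, 16 were positive (57.1%, beside 49.8% of all gene pairs) and the median r was 0.38, beside -0.001 over all pairs of genes tested. An r of at least 0.7 was found in 6 of the 28 pairs (21.4%) and in 1.51% of all gene pairs. An adjusted p of 0.05 or less was reached by 1 of the 28 pairs, beside 177 of all 114088 pairs (0.155%).

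That pair joined the enzymes of the mitochondrial matrix, SOD2 and PRDX3, with r = 0.903 (permutation p = 1e-05, the smallest the resamples can give, adjusted p = 0.0219) and rho = 0.888 (permutation p = 0.00022, adjusted p = 0.0805). Pigs 2 and 9 were lowest for both genes, and pigs 3, 5 and 7 were the highest 3 for SOD2. Without pigs 2 and 9, the 2 farthest from the median of SOD2, r was 0.851. Within the high IMF group r was 0.935 and within the low IMF group 0.888 (n = 6 each). With single pigs left out r lay between 0.877 and 0.924, while the adjusted p was above 0.05 without any pig other than pig 7. Without pig 5 and without pig 9, 0% of all pairs passed, and even the self-pairs failed. The smallest p of the resamples was then too large to pass, so these failures say nothing of this pair.

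The next pairs did not pass after adjustment. SOD1 with PRDX3 had r = 0.870 (rho = 0.769, permutation p = 0.00051 and 0.00483, adjusted p = 0.0931), SOD1 with SOD2 had r = 0.799 (rho = 0.762, permutation p = 0.00185 and 0.00537, adjusted p = 0.141) and CAT with NQO1 had r = 0.799 (rho = 0.783, permutation p = 0.00193 and 0.0038, adjusted p = 0.142). PRDX3 with NQO1 had r = 0.798 (adjusted p = 0.158, permutation) and SOD2 with NQO1 had r = 0.719 (adjusted p = 0.229, permutation). Without the 2 pigs farthest from the median of the first gene, these 5 pairs had r of 0.782, 0.602, 0.714, 0.829 and 0.801 in the order given. Of the secreted enzymes, SOD3 had r of -0.62 with PRDX3, -0.52 with SOD1 and -0.50 with SOD2 (adjusted p from 0.344 to 0.480, permutation). GPX3 had r of -0.46 with SOD1, -0.36 with PRDX3, -0.25 with NQO1 and -0.06 with SOD2 (adjusted p from 0.534 to 0.962, permutation), and none of these 7 pairs passed. SOD3 and GPX3 had r = 0.46 with each other (adjusted p = 0.538, permutation). GPX4 with CAT had r = 0.06 over all pigs, 0.898 within the high and -0.292 within the low IMF group, a difference that was not tested.

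**Figure D4:**
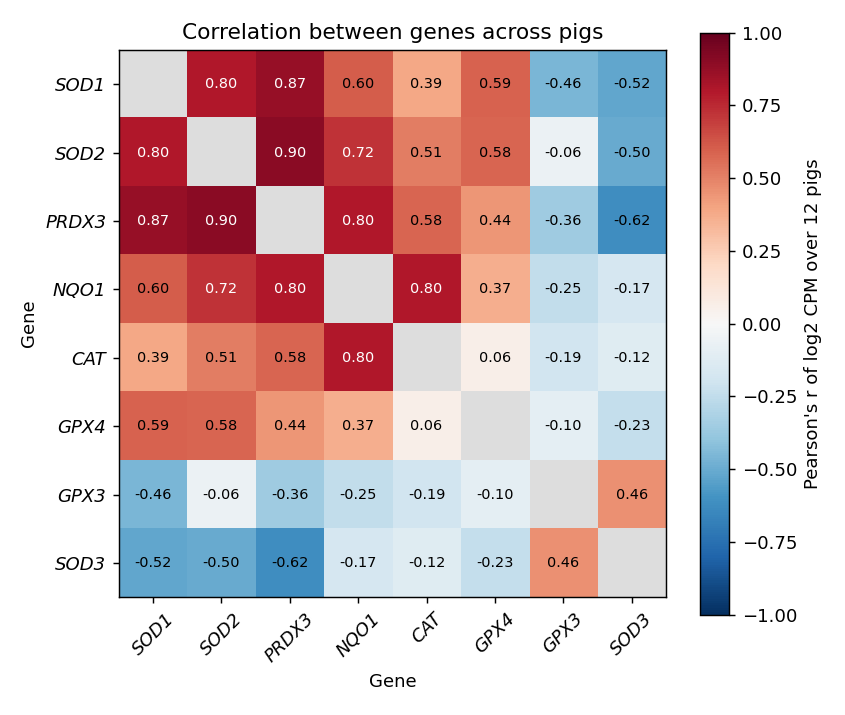
Pearson's r of log2 CPM over 12 pigs for each pair of 8 antioxidant enzyme genes, from -1 (blue) to 1 (red), with the diagonal in grey. SOD1, SOD2, PRDX3 and NQO1 form a positive block with r from 0.60 to 0.90, while SOD3 has r from -0.62 to -0.50 with SOD1, SOD2 and PRDX3.

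The genes were also compared with mitochondrial markers. The list held CS, SDHA, NDUFS1, COX4I1, ATP5F1A and VDAC1, all 6 tested, with 0 at a raw p of 0.05 or less between the groups by edgeR, and summed to between 1360 and 2054 CPM in the high and between 1315 and 2294 CPM in the low IMF group. SOD2 correlated with their mean log2 CPM at r = 0.930 (permutation p = 2e-05, adjusted p = 0.0387 over all genes and 11 marker lists) and rho = 0.923 (permutation p = 9e-05). The r was 0.880 without the 2 farthest pigs, 0.909 within the high and 0.985 within the low IMF group, and between 0.910 and 0.950 with each pig left out, for which the adjusted p was not recomputed. The adjustment also held the genes of each list against the mean that contains them. Such pairs correlate by construction and can lower the adjusted p. Whether SOD2 would pass without them was not computed. The relation of SOD2 with the mitochondrial markers was the 1 of 88 relations of an enzyme gene with a marker list that passed. The share of all genes that passed with a marker list was not computed, so this count is only a description. PRDX3 had r = 0.901 (rho = 0.825, adjusted p = 0.0756, permutation), SOD1 had 0.878 (rho = 0.776, adjusted p = 0.136, permutation) and NQO1 had 0.769 (rho = 0.818, adjusted p = 0.287, permutation). GPX4 (0.58) and CAT (0.52) had lower values, which ran from 0.38 to 0.66 and from 0.42 to 0.67 with single pigs left out. GPX3 had r = -0.13, from -0.33 to 0.02 with single pigs left out, and SOD3 had r = -0.43, from -0.58 to -0.32.

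With the mean of the mitochondrial markers subtracted, the SD over pigs of log2 CPM fell from 0.29 to 0.11 for SOD2, from 0.23 to 0.11 for PRDX3 and from 0.42 to 0.27 for NQO1, and was 0.15 in place of 0.14 for SOD1. For CAT it fell from 0.43 to 0.37. It rose from 0.18 to 0.21 for GPX4, from 0.45 to 0.55 for GPX3 and from 0.71 to 0.85 for SOD3. Relative to these markers PRDX3 was 0.11 log2 units lower in low than in high IMF pigs (-1.11 ± 0.135 against -0.996 ± 0.0441, SD, n = 6, exact two-sided permutation p = 0.0714), and SOD2 was 0.07 lower (0.35 ± 0.05 against 0.42 ± 0.14, SD, n = 6, exact two-sided permutation p = 0.260). The p of PRDX3 was the smallest of the 8 genes, which ran up to 0.779 by the same test and were not adjusted. Markers of slow fibres, which are rich in mitochondria, had r = 0.65 with PRDX3, 0.59 with SOD1, 0.56 with NQO1, 0.52 with SOD2 and 0.49 with CAT (adjusted p from 0.433 to 0.617, permutation), and r of 0.04, -0.28 and -0.46 with GPX4, GPX3 and SOD3. Adipocyte markers had r between -0.30 (GPX4) and 0.31 (CAT) with the 8 genes. SOD3 had its highest r with macrophages (0.55) and fibro-adipogenic cells (0.52), with adjusted p of 0.542 and 0.574 (permutation). What part the fibre and cell content of a muscle piece had in these relations was not tested.

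**Figure D5:**
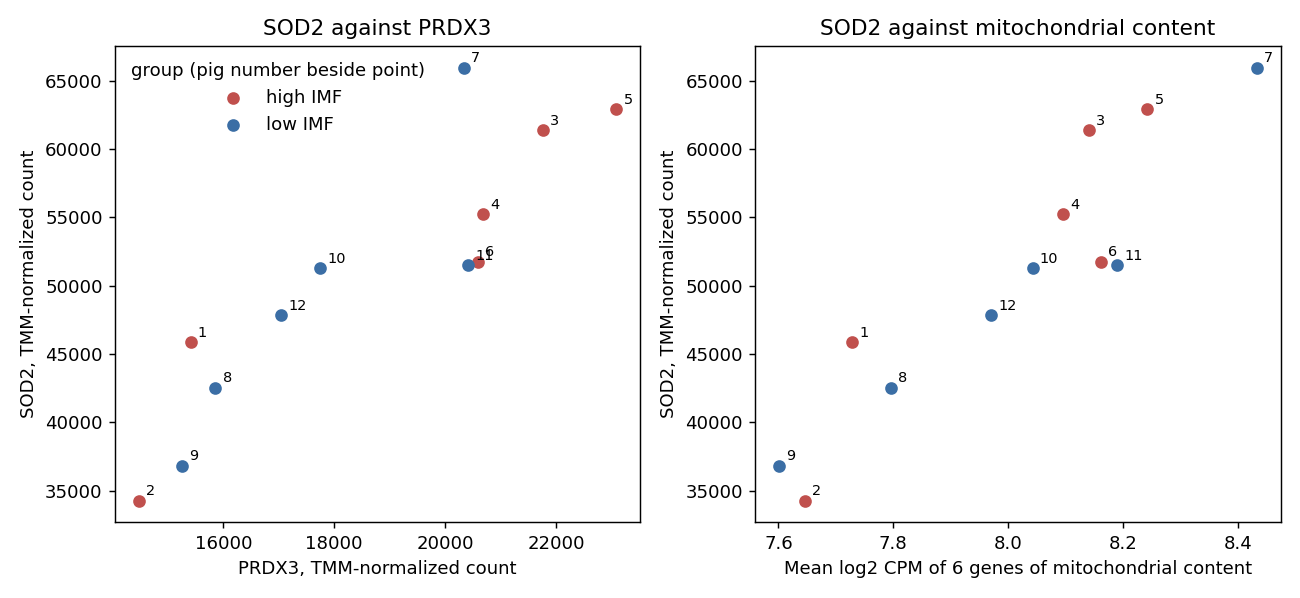
TMM-normalized counts of SOD2 in 12 pigs (6 high IMF, 6 low IMF, pig numbers beside points) against those of PRDX3 (left) and against the mean log2 CPM of 6 genes of mitochondrial content (right). Pigs of both groups lie along 1 rising band, with r = 0.903 on the left and 0.930 on the right (r computed on log2 CPM).

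Each enzyme gene was also set beside all other genes with a symbol. The gene most like SOD2 was ATP5F1C, a subunit of ATP synthase (r = 0.959), and that most like PRDX3 was SDHD, a subunit of respiratory complex II (r = 0.971). SOD1 was most like SNRPE, a core protein of the spliceosome (r = 0.968), and SOD3 most like AP2A2, an adaptor of clathrin-coated pits (r = 0.918), all 4 with an adjusted p of 0.0219 (permutation). NQO1 was most like HPS3 (r = 0.905, adjusted p = 0.0450, permutation). GPX4 with PET100, an assembly factor of respiratory complex IV (r = 0.908), CAT with SUOX, the mitochondrial sulphite oxidase (r = 0.903), and GPX3 with DENND4B (r = 0.860) had adjusted p of 0.0521, 0.0548 and 0.0919 (permutation).

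Among the 100 genes most like each enzyme gene, symbols beginning with NDUF, SDH, UQCR, COX or ATP5, which name respiratory chain and ATP synthase subunits and their assembly factors, numbered 34 for PRDX3, 31 for SOD2, 26 for SOD1 and 23 for NQO1. They numbered 4 for GPX4, 2 for CAT and 0 for GPX3 and SOD3. Of all 11837 tested genes with a symbol, 81 (0.684%) had such a name. This grouping was chosen after the most alike genes were seen, and 4 of the mitochondrial markers carry such names, so the counts are a description. SOD2 and PRDX3 shared 54 of their 100 genes (54% of each list), SOD1 and PRDX3 shared 51, PRDX3 and NQO1 39, and CAT shared 21 with NQO1 and 2 with SOD2.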

How the data were processed

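Per the methods and labels, the authors trimmed reads with Trimmomatic, used HISAT2 for alignment to Sscrofa11.1, StringTie for assembly and HTSeq for reads per Ensembl gene, and they deposited whole-number counts, not normalized, for 12 pigs. The annotation release and the strand and multi-mapping options are not given in the sources used here, so overlapping genes and near copies are uncertain. Stranded polyadenylated libraries were run in pairs on lanes, and which pigs shared a lane was not analysed here. Columns holding other samples numbered 0.

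Symbols were matched through the pig gene name table (14857 genes with a symbol). The members and lists were chosen with earlier results of these data known. Named genes are all members found, NFE2L2, KEAP1, up to 8 related genes with the smallest unadjusted p at or under 0.05 and the gene most alike each member. Genes kept by filterByExpr (14262) were normalized by TMM and compared with edgeR's quasi-likelihood test (edgeR 4.0.16, limma 3.58.1, R 4.3.3), with no term but the group, leaving 10 residual degrees of freedom, and Benjamini-Hochberg adjustment over all genes tested. Normalized counts are on TMM library sizes and log2 CPM used a prior count of 2. Correlations and exact tests used Python 3.11.15, numpy 2.4.6 and pandas 2.3.3. All tests were two-sided. The edgeR test and the permutation test of Pearson's r were tried on simulated data, that for edgeR with dispersions taken from the fit of these data. The other tests were not tried in this way. Pigs are separate animals, and any pair of a group differed by a chi-square per degree of freedom of at least 167.9, far over sampling noise. The 95% confidence intervals were computed from the edgeR fit and its F statistic, and so include the spread between pigs of a group. Lengths, positions and upstream windows came from RefSeq on Sscrofa11.1, which matched the files' build. Alternatives were DESeq2's size factors and Wald test (DESeq2 1.42.0), upper-quartile scaling, limma-voom, other filters, labelled sex, age, and each pig left out, and, chosen after seeing the data, Y chromosome counts as a covariate.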

Additional observations from a re-analysis of the deposited data

How the results depend on the processing

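Of the 8 genes, 0 were called in each of the 22 alternatives, and 0 had a raw p of 0.05 or less in each but one. With Y chromosome counts as a covariate, an alternative chosen after seeing the data, 1 had such a p, GPX3 (log2FC 0.29, edgeR adjusted p = 0.415). In that alternative 1713 of 14262 genes tested had such a p, so 1 of 8 does not set these genes apart. Over the 14 named genes and 22 alternatives, 297 of 308 log2FC values kept their sign and their side of an adjusted p of 0.05, and the other 11 turned in sign, none of them past it. With each pig left out in turn the log2FC ran from -0.0794 to 0.0014 for SOD1, from -0.1433 to 0.2467 for SOD3, from -0.2609 to 0.0214 for CAT and from -0.0938 to 0.0508 for GPX4, and, without a turn in sign, from -0.169 to -0.0026 for SOD2, from -0.1926 to -0.0646 for PRDX3, from 0.1341 to 0.4331 for GPX3 and from -0.371 to -0.0679 for NQO1. Each of these 8 values moved by over 1.5 times with some pig left out, and so did NFE2L2 (-0.2707 to -0.0829, and -0.0989 with age as a covariate). The log2FC of GPX4 was 0.0001 with age as a covariate. The related genes with a raw p of 0.05 or less numbered 4, between 2 and 6 with a pig left out (2 without pig 5 and 2 without pig 6), and 4 or 5 in the other alternatives. The number over all genes tested moved too. It was 1301 of 14423 without pig 5, 1046 of 14411 without pig 6 and 2060 of 14364 without pig 2, where 6 of the 41 related genes had such a p. The 1 pair of enzyme genes called by Pearson's r was also 1 with DESeq2's size factors and with each group centred, but 0 by Spearman's rho. With a pig left out the number was between 0 and 1, being 1 without pig 7 only. Over all pairs, self-pairs included, the share called moved as well. It was 0.162% in the main setting, 0.142% with DESeq2's size factors, 0.423% with each group centred and 0.064% by Spearman's rho. With a pig left out it ran from 0% (without pig 5 and without pig 9) to 0.187% (without pig 7). At 0% the self-pairs failed too, so the loss of the enzyme pair without pig 5 or pig 9 says nothing of that pair. No paired analysis was possible because the labels give the groups no shared replicate numbers. With 100000 resamples the smallest p is 1e-05, which limits what can pass over 114088 pairs, and SOD3 and GPX2 rest on few counts.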
